A study of Homo sapiens with 6 samples.

Results

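The genes described here regulate, or mark, the epithelial-mesenchymal transition (EMT), the program by which epithelial cells lose their junctions and take on a migratory, fibroblast-like state. Members were the rows of the deposited value table whose gene symbol was SNAI1, SNAI2, ZEB1, ZEB2, TWIST1, TWIST2, VIM, ESRP1, ESRP2 or GRHL2. Of these 10 genes, 9 had a row. ZEB2 had 2 rows, which gives 10 rows among the 21214 tested rows with a gene symbol. ESRP1 was not analysed here.

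The samples were MDA-MB-231 cells, a human cell line established from a triple-negative breast cancer, on 6 Affymetrix Human Gene 1.0 ST arrays. The groups were 2 control shRNA clones, 2 clones with TIP-1 shRNA 162 and 2 clones with TIP-1 shRNA 159, described as independent, with no technical replicates. A short hairpin RNA (shRNA) lowers a chosen transcript, here that of TIP-1, a small PDZ-domain protein encoded by TAX1BP3. All cultures were kept in RPMI medium plus 10% fetal bovine serum, reseeded after trypsin and left overnight before total RNA was taken. Each hairpin group rests on 2 clones, so a property of these clones and an effect of the hairpin cannot be told apart. Neither the vector nor the hairpin sequences were given in the labels.

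SNAIL proteins (SNAI1, SNAI2) and ZEB proteins (ZEB1, ZEB2) are zinc finger repressors that bind E-box sequences and silence epithelial genes such as the E-cadherin gene CDH1. TWIST1 and TWIST2 are helix-loop-helix factors of mesoderm that can start the same program, and vimentin (VIM) is the intermediate filament protein of mesenchymal cells. On the epithelial side, ESRP1 and ESRP2 direct epithelial splicing and GRHL2 sustains junction genes. MDA-MB-231 is widely used as a mesenchymal-like breast cancer line.

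TAX1BP3, the targeted gene, was lower in every shRNA clone. Its row read 11.65 and 11.56 in the control clones, 9.85 and 10.01 with shRNA 162 and 10.40 in both clones with shRNA 159 (log2 signal). This left 31.3% of the control signal with shRNA 162 and 43.4% with shRNA 159, and the row is shared with the readthrough transcript P2RX5-TAX1BP3. Array medians lay between 7.37 and 7.44. Clones of a group correlated at 0.996 to 0.997 across tested rows. Of 8 marker genes of this line known to be expressed, which include VIM, CD44 and EGFR, the mean log2 signal was 11.71 to 11.82 across clones. SPARC, also among the 8, read well below that mean, between 7.55 and 8.23. Of 7 measured genes known to be low or absent in this line, CDH1, ESR1, PGR and ERBB2 among them, the mean was 7.01 to 7.14. Of these 7, 0 lay below the lower quartile of every array. FOXA1 (7.84 to 8.05) and GATA3 (7.77 to 7.93), also on this list, read above every array median. Leukocyte (7 genes, 6.27 to 6.40), fibroblast and endothelial (8 genes, 6.08 to 6.30) and melanocyte markers (5 genes, 6.74 to 6.77) had 2 members each below the lower quartile of every array, and none of these 5 lists held a gene that passed in any comparison at the threshold used below. Signals of different rows are not on a common scale, and detection calls were not used here.

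Among the regulators, SNAI1 and SNAI2 differed from control, in opposite directions, and the remaining members did not pass. The threshold was a p under 0.05 in limma's moderated two-sided test after Benjamini-Hochberg adjustment over all 21214 rows. For TIP-1 shRNA minus control (the mean of both hairpin groups) 1 of 9 measured members rose, SNAI1, and 1 fell, SNAI2, where 4.62% of all rows passed (3.01% higher and 1.61% lower). With shRNA 162 minus control 1 of 9 passed, SNAI2, against 9.52% of all rows. With shRNA 159 minus control 2 of 9 passed, SNAI1 and SNAI2, against 2.53% of all rows. Between the hairpins 2 of 9 passed, SNAI1 and ZEB2, both higher with shRNA 159, against 8.65% of all rows. The median difference over the 9 members was -0.04 for TIP-1 shRNA minus control, beside 0.00072 over all rows. After quantile normalization across arrays, rows higher and lower numbered 565 and 459 for TIP-1 shRNA minus control (639 and 341 on the deposited values), 1078 and 1074 with shRNA 162 (1247 and 772) and 1071 and 855 between hairpins (852 and 984), and the members that passed kept their direction. The comparisons of each hairpin with control share the control clones and are not independent of each other. Each count rests on single clones too. Without control clone 1 or without control clone 2, 0 of 9 members passed for TIP-1 shRNA minus control. With shRNA 162 minus control 0 of 9 passed without control clone 1 or without shRNA 162 clone 1. With shRNA 159 minus control the count was 1 without control clone 1, without shRNA 159 clone 1 or without shRNA 159 clone 2, and 0 without control clone 2. Between the hairpins it was 0 without shRNA 159 clone 1, shRNA 162 clone 1 or shRNA 162 clone 2. Leaving out a clone of the group not compared is the same as a fit of the 4 arrays compared, in which 2 members passed with shRNA 162, SNAI1 and SNAI2, 1 with shRNA 159, SNAI1, and 0 between hairpins.

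**Figure D1:**
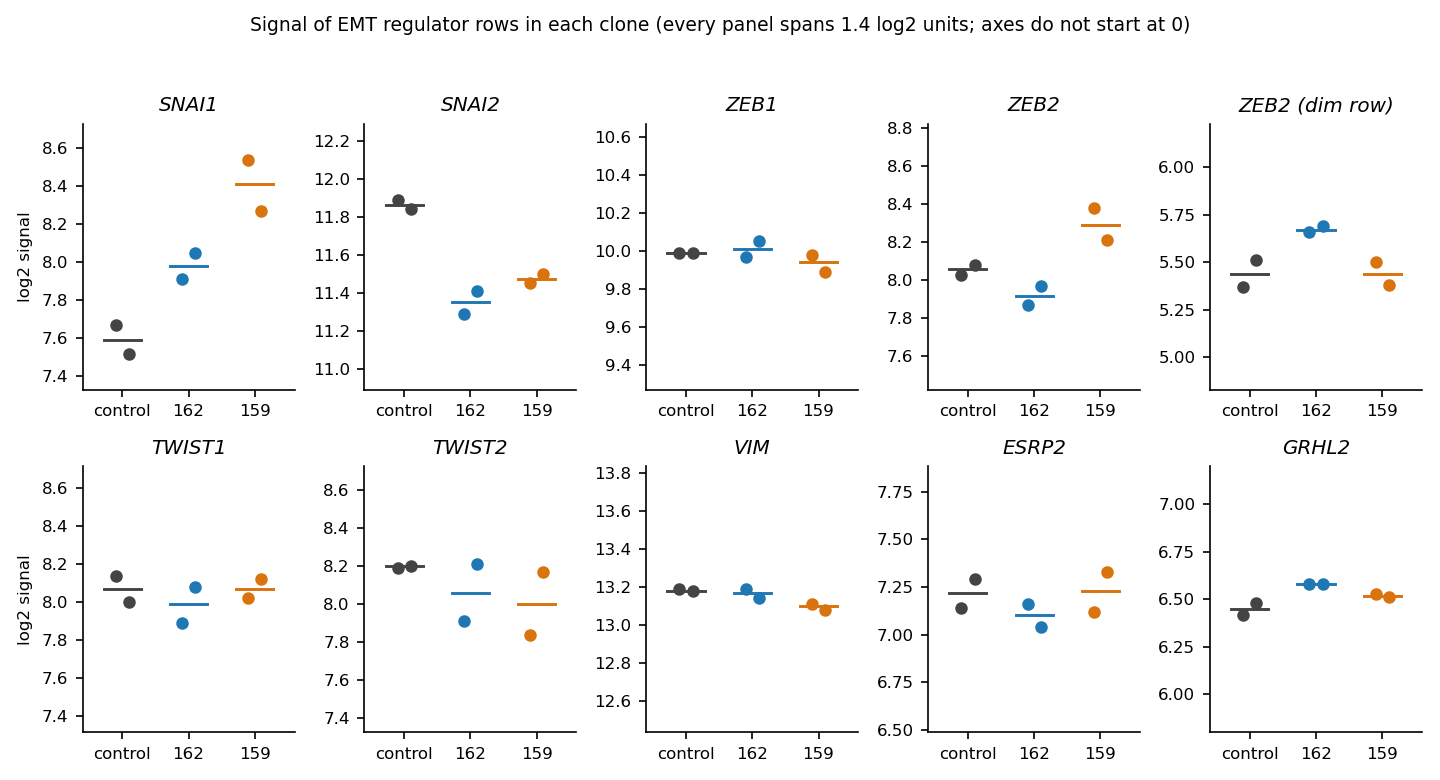
Log2 signal (vertical axis) of each regulator row in the control, shRNA 162 and shRNA 159 clones; points are single clones, short lines are group means, and every panel spans 1.4 log2 units on an axis that does not start at 0. SNAI1 lies higher and SNAI2 lower in all 4 shRNA clones than in both control clones, and the ZEB1, TWIST1 and VIM points stay close together.

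SNAI1 encodes SNAIL, the best-known repressor of CDH1 and a short-lived protein. Its row read 7.67 and 7.52 in the control clones, 7.91 and 8.05 with shRNA 162, and 8.54 and 8.27 with shRNA 159 (log2 signal). The groups did not overlap, and their means rose in the order control (7.59 ± 0.10), shRNA 162 (7.98 ± 0.10) and shRNA 159 (8.41 ± 0.19; SD, n = 2 each). SNAI1 was 1.51-fold higher in TIP-1 shRNA than in control, a log2 difference of 0.60 (SE 0.09, limma adjusted p = 0.012). With shRNA 159 it was 1.76-fold higher (0.81, SE 0.11, limma adjusted p = 0.0073). With shRNA 162 it was 1.30-fold of control (0.38, SE 0.11), with a 95% interval of 0.13 to 0.63, and did not pass (limma adjusted p = 0.065). The hairpins differed by 0.43 (SE 0.11, limma adjusted p = 0.047), so SNAI1 stood highest in the shRNA 159 clones, in which more TAX1BP3 signal remained. An exact two-sided permutation test, 4 shRNA against 2 control clones, gave p = 0.133, and the smallest p that 15 splits allow is 0.0667.

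The SNAI1 calls lie close to the threshold and rest on the spread between clones of a group. For TIP-1 shRNA minus control the log2 difference was 0.67 without control clone 1 (limma adjusted p = 0.068) and 0.52 without control clone 2 (limma adjusted p = 0.137), and neither passed. With the 4 shRNA clones as 1 group the limma adjusted p was 0.245, and with the hairpin as a random block it was 0.393. For shRNA 159 minus control the difference was 0.74 without control clone 2 (limma adjusted p = 0.075). The difference between hairpins lost its call without shRNA 162 clone 1 (0.36), shRNA 162 clone 2 (0.50) or shRNA 159 clone 1 (0.30). In all of these fits SNAI1 stayed on the same side of 0.

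SNAI2 encodes SLUG, the other main SNAIL family repressor, linked to basal breast cells and to migration. Its row read 11.89 and 11.84 in the control clones, 11.29 and 11.41 with shRNA 162, and 11.45 and 11.50 with shRNA 159 (log2 signal). SNAI2 thus read lower in each of the 4 shRNA clones than in either control. It fell to 73.0% of the control signal in TIP-1 shRNA, a log2 difference of -0.45 (SE 0.07, limma adjusted p = 0.0097). It fell to 69.8% with shRNA 162 (-0.52, SE 0.08, limma adjusted p = 0.0066) and to 76.3% with shRNA 159 (-0.39, SE 0.08, limma adjusted p = 0.044). The hairpins did not differ for SNAI2 beyond their error, with a difference of 0.13 and a 95% interval of -0.05 to 0.31 (limma adjusted p = 0.375). The exact permutation test gave p = 0.0667, the smallest that it allows. In these bulk cultures, fewer cells with the transcript and less transcript per cell cannot be told apart.

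As for SNAI1, single clones decided some SNAI2 calls. For TIP-1 shRNA minus control SNAI2 stood at -0.43 without control clone 1 (limma adjusted p = 0.111) and at -0.48 without control clone 2 (limma adjusted p = 0.086). With the 4 shRNA clones as 1 group the limma adjusted p was 0.095, and with the hairpin as a random block 0.187. With shRNA 162 the call was lost without control clone 1 (-0.49, limma adjusted p = 0.061) and without shRNA 162 clone 1 (-0.46, limma adjusted p = 0.057). With shRNA 159 it was lost without any 1 of the 4 clones compared, at -0.36 and -0.42 without control clone 1 and 2, and -0.37 and -0.41 without shRNA 159 clone 1 and 2. The size of the SNAI2 difference moved little in these fits.

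**Figure D2:**
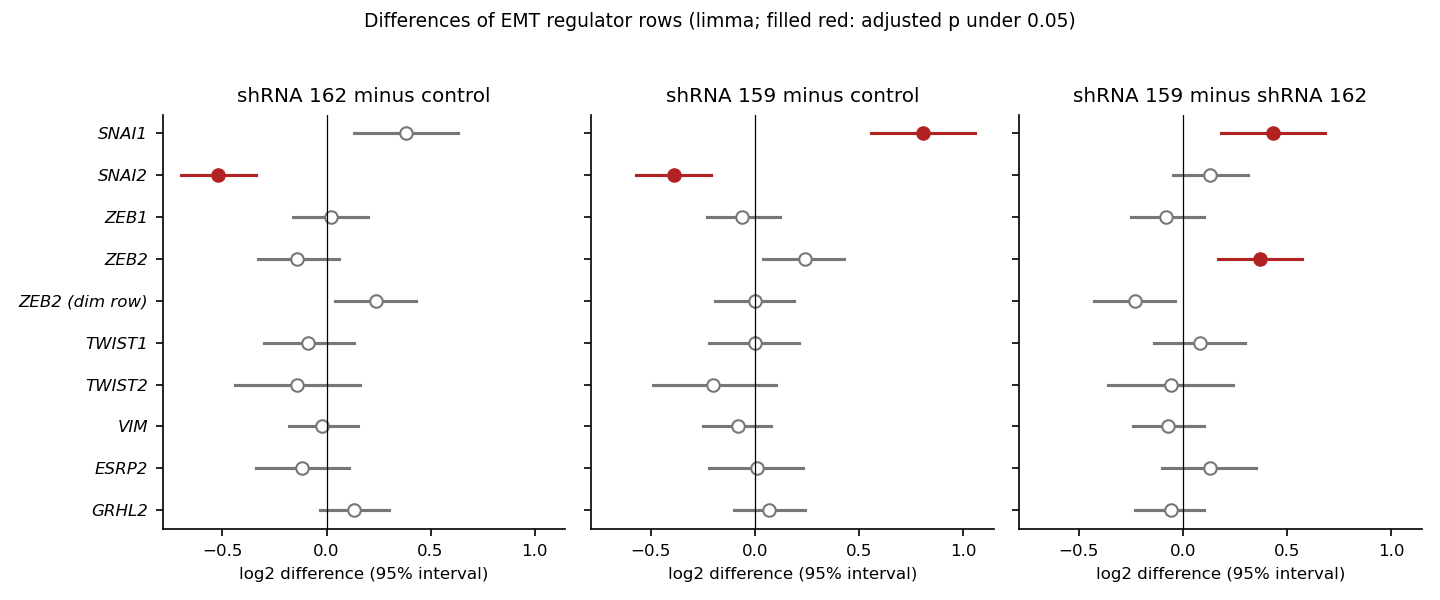
Log2 differences of each regulator row (horizontal axis) for shRNA 162 minus control, shRNA 159 minus control and shRNA 159 minus shRNA 162; lines are 95% intervals from limma, filled red points passed at an adjusted p under 0.05 and open points did not. SNAI2 is filled in both hairpin panels, SNAI1 with shRNA 159 and between hairpins, and ZEB2 between hairpins alone.

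The ZEB proteins close a loop with the miR-200 family, small RNAs that bind ZEB1 and ZEB2 messages and whose genes the ZEB proteins repress. In the same way miR-34a is known to target SNAI1 and miR-203 to target SNAI2. The mature sequences are shown because their seeds (bases 2 to 8, in capitals), through which a miRNA pairs with its targets, sort the miR-200 family into 2 groups. They come from RefSeq (GRCh38.p14), are written 5′ to 3′, and all 7 names sought had an entry.
hsa-miR-200b-3p: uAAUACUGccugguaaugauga
hsa-miR-200c-3p: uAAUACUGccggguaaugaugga
hsa-miR-429: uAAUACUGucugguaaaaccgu
hsa-miR-200a-3p: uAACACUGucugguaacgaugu
hsa-miR-141-3p: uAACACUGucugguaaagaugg
hsa-miR-34a-5p: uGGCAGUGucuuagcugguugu
hsa-miR-203a-3p: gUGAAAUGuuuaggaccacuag
The first 3 share the seed AAUACUG and the next 2 share AACACUG. In GRCh38.p14, miR-200b-3p (chr1:1167160-1167181), miR-200a-3p (chr1:1167916-1167937) and miR-429 (chr1:1169055-1169076) lie close together on the plus strand, as do miR-200c-3p (chr12:6963742-6963764) and miR-141-3p (chr12:6964155-6964176). The others are miR-34a-5p (chr1:9151735-9151756, minus strand) and miR-203a-3p (chr14:104117469-104117490, plus strand). Each of the 7 genes had an array row, which reads the transcript of the miRNA gene and not the mature miRNA. MIR200B lay between 7.36 and 7.53 over the 6 clones and MIR429 between 6.50 and 6.88. MIR200A, MIR141, MIR34A and MIR203A were below the lower quartile of every array, and MIR200C was so on 4 of 6. The row with the smallest adjusted p was MIR200C, at -0.32 for TIP-1 shRNA minus control (limma adjusted p = 0.162), and 0 of the 7 rows passed in any comparison.

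ZEB1, the ZEB factor most tied to the mesenchymal state of carcinoma lines, gave nearly the same signal in all clones. Its row read 9.99 in both control clones, 9.97 and 10.05 with shRNA 162, and 9.98 and 9.89 with shRNA 159 (log2 signal). The difference for TIP-1 shRNA minus control was -0.02, with a 95% interval of -0.17 to 0.14 (limma adjusted p = 0.916). Differences smaller than these limits cannot be told from no difference here. The interval was -0.16 to 0.20 with shRNA 162 and -0.23 to 0.12 with shRNA 159.

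ZEB2, the relative of ZEB1 with an overlapping set of targets, differed between the hairpins. Its brighter row read 8.03 and 8.08 in the control clones, 7.87 and 7.97 with shRNA 162, and 8.38 and 8.21 with shRNA 159 (log2 signal). The control clones lay between the hairpin groups, and the groups did not overlap. The hairpins differed by 0.37 (SE 0.09, 1.29-fold, limma adjusted p = 0.036). Neither hairpin passed against control, at -0.14 with shRNA 162 (limma adjusted p = 0.384) and 0.24 with shRNA 159 (limma adjusted p = 0.261), and their mean was 0.05. The call between hairpins was lost without shRNA 159 clone 1 (0.29, limma adjusted p = 0.116), shRNA 162 clone 1 (0.32, limma adjusted p = 0.198) or shRNA 162 clone 2 (0.42, limma adjusted p = 0.106), and in the fit of the 4 arrays compared (limma adjusted p = 0.064).

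The second ZEB2 row went the other way. It lay between 5.37 and 5.69 in all 6 arrays, each time under that array's lower quartile, and differed by -0.23 between hairpins without passing (limma adjusted p = 0.131). The ZEB2 difference therefore holds for the brighter row alone. The promoter of ZEB2 is shown because this was the member that differed between hairpins and had an entry among the RefSeq promoters, as 4 of the 10 member genes did (ZEB1, ZEB2, TWIST2 and VIM). The 250 bases before its start site, GRCh38.p14 chr2:144520120-144520369 on the minus strand, are given 5′ to 3′ with the match to the general E-box CANNTG in capitals.
ZEB2: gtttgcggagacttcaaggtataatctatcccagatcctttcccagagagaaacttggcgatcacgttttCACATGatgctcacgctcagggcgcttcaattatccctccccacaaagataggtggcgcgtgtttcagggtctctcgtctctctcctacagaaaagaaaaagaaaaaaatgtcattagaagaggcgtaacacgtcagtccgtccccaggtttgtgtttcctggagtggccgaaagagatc
CANNTG, which reads the same pattern on both strands, was matched 1 time, and 61.8% of all 35116 RefSeq promoter windows of 250 bases hold such a match. The E-box CACCTG, searched on both strands and a form of the general E-box known to bind SNAIL and ZEB proteins, had 0 matches here and is held by 17.5% of the windows. Among the 7 ZEB1 windows, which belong to alternative start sites, 2 held CACCTG on either strand, and the TWIST2 and VIM windows held none.

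The TWIST genes showed no difference beyond the spread between clones. TWIST1, a target in many studies of metastasis, read 8.14 and 8.0 in the control clones, 7.89 and 8.08 with shRNA 162, and 8.02 and 8.12 with shRNA 159 (log2 signal). Its groups overlapped, and the difference for TIP-1 shRNA minus control was -0.04 (95% interval -0.23 to 0.14, limma adjusted p = 0.813). TWIST2, which shares its DNA-binding region with TWIST1, read 8.19 and 8.20 in the control clones, 7.91 and 8.21 with shRNA 162, and 7.84 and 8.17 with shRNA 159. It had the widest gap between clones of a group among the member rows, 0.33 on the log2 scale with shRNA 159, against 0.06 for VIM. The TWIST2 difference was -0.17, and its interval of -0.43 to 0.09 was the widest of the members too (limma adjusted p = 0.467).

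VIM, the filament protein most often used to mark mesenchymal cells, gave nearly the same signal in all clones. Its row read 13.19 and 13.18 in the control clones, 13.19 and 13.14 with shRNA 162, and 13.11 and 13.08 with shRNA 159 (log2 signal). The difference for TIP-1 shRNA minus control was -0.05, with a 95% interval of -0.20 to 0.09 (limma adjusted p = 0.716). Both shRNA 159 clones lay below the other 4, by a difference from control of -0.08 that did not pass (limma adjusted p = 0.66). The intermediate filament and cytolinker genes around VIM include lamins, nestin and plectin. Of 16 measured, 0 passed in limma for TIP-1 shRNA minus control, where 4.62% of all rows passed. At an unadjusted p under 0.05 in the same test 0 of the 16 passed, against 4192 of all 21214 rows. Between the hairpins 1 of 16 passed, where 8.65% of all rows passed. It was the cytolinker PLEC, at -0.31 (limma adjusted p = 0.044), a call lost without any 1 of the 4 clones.

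The epithelial regulators showed no difference that passed. ESRP2, a splicing factor of epithelial cells, read 7.14 and 7.29 in the control clones, 7.16 and 7.04 with shRNA 162, and 7.12 and 7.33 with shRNA 159 (log2 signal). Its difference for TIP-1 shRNA minus control was -0.05 (95% interval -0.25 to 0.14, limma adjusted p = 0.776). GRHL2, a grainyhead factor that supports CDH1 expression and opposes ZEB1, read 6.42 and 6.48 in the control clones, 6.58 in both clones with shRNA 162, and 6.53 and 6.51 with shRNA 159. All 4 shRNA clones lay above both control clones, but by 0.10 (95% interval -0.04 to 0.25, limma adjusted p = 0.428), and GRHL2 did not pass. The exact permutation test for GRHL2 gave p = 0.0667, the smallest it allows.

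On the chromosomes, nearly all measured neighbours of the regulators that passed were short of the threshold. The 10 nearest measured genes around SNAI2 on chromosome 8 had a median difference of 0.03 for TIP-1 shRNA minus control, and 0 of 10 passed. Around SNAI1 on chromosome 20 the median over 10 neighbours was below 0.01 in size and 0 of 10 passed for that comparison, while 1, B4GALT5, passed higher with shRNA 159 at 0.42 and was the 1 that passed between hairpins. The median of the SNAI1 neighbours was 0.08 with shRNA 159 and 0.18 between hairpins, beside -0.01 and -0.04 over all rows. Their part in the SNAI1 result was not tested. Around ZEB2 on chromosome 2 the median difference between hairpins was 0.06 and 0 of 10 neighbours passed. Gene order was taken from RefSeq (GRCh38.p14).

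The genes most like each of these 3 members over the 6 arrays were sought among 2733 other rows with 1 symbol that passed in any comparison. For SNAI1 the closest were MXD1, GSAP and SMU1 (Pearson r 0.996, 0.994 and 0.994). For SNAI2 they were NLRP3, ADD3 and CLMP (0.999, 0.993 and 0.991), of which NLRP3 stood at -0.82 with shRNA 162 and -0.62 with shRNA 159. For ZEB2 they were IFTAP, LPIN1 and DHTKD1 (0.997, 0.990 and 0.990). With 6 arrays in 3 groups and this many rows searched, these coefficients are a description and carry no test.

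SNAIL and ZEB proteins are known to repress epithelial junction genes. Of 29 measured epithelial junction and polarity genes, 2 rose and 0 fell for TIP-1 shRNA minus control, where 3.01% of all rows rose and 1.61% fell, with a median difference of -0.03. CDH1, the classic SNAIL target, read 6.34 and 6.40 in the control clones, 6.37 and 6.42 with shRNA 162, and 6.22 and 6.29 with shRNA 159 (log2 signal). Its difference was -0.04 (95% interval -0.19 to 0.11, limma adjusted p = 0.782). The CDH1 row read below every array median (7.37 to 7.44), and whether so dim a row could show a fall was not tested. EPCAM, an epithelial adhesion molecule, rose by 0.55 (limma adjusted p = 0.0039), and JUP, the junction protein plakoglobin, rose by 0.28 (limma adjusted p = 0.049). Without control clone 1 EPCAM did not pass (limma adjusted p = 0.067), and JUP failed without either control clone, either shRNA 162 clone or shRNA 159 clone 1 (limma adjusted p up to 0.257). With the spread between hairpins in the error, as a random block, EPCAM (limma adjusted p = 0.682) and JUP (0.434) did not pass. The same held for all 13 calls, in the comparison of TIP-1 shRNA with control, of companion genes selected by the naming rule given below (limma adjusted p 0.069 to 0.765). With the 4 shRNA clones as 1 group 11 of the 13 were lost, while FBN1 and IL6 passed. WNT5A, a mesenchymal gene that passed but was not selected by this rule, was not checked in these fits.

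In the shRNA 159 clones 3 of the 29 junction genes rose and 0 fell, where 1.69% of all rows rose. EPCAM read 7.97 and 8.02 there, against 7.01 and 7.09 in control and 7.16 and 7.25 with shRNA 162, a 1.92-fold difference from control (0.94, limma adjusted p = 0.00086). The tight junction protein CLDN4 rose by 0.58 (limma adjusted p = 0.023) and LSR, a protein of tricellular junctions, by 0.47 (limma adjusted p = 0.013). CLDN4 and LSR each failed without either control clone or shRNA 159 clone 1. These 3 genes stood higher with shRNA 159 than with shRNA 162, EPCAM by 0.79, CLDN4 by 0.85 and LSR by 0.59, in fits without any 1 of the 4 clones as well. Neighbouring genes rose beside 2 of them: with shRNA 159, 4 of 10 neighbours of EPCAM on chromosome 2 rose (median 0.37) and 5 of 10 neighbours of CLDN4 on chromosome 7 rose (median 0.37). The EPCAM neighbours also stood higher with shRNA 159 than with shRNA 162 (4 of 10, median 0.23), and their part in the EPCAM result was not tested. The CLDN4 neighbours also rose with shRNA 162 (3 of 10, median 0.20), where CLDN4 stood at -0.27, and 0 of 10 passed between hairpins (median 0.09), where CLDN4 differed by 0.85. With shRNA 162, JUP was the 1 of 29 that rose, where 5.88% of all rows rose. It stood at 0.32 (limma adjusted p = 0.031), a call lost without any 1 of the 4 clones compared. Between the hairpins 3 of the 29 stood higher and 3 lower with shRNA 159, where 4.02% and 4.64% of all rows did. Those lower were MAL2 (-0.45) and the desmosome proteins DSP (-0.34) and PKP2 (-0.33). Each of these calls was lost without shRNA 159 clone 2 or either shRNA 162 clone. Of 10 neighbours of MAL2 on chromosome 8, 4 were lower as well (median -0.36), whose part was not tested. Among 9 keratins 1 passed with shRNA 159 and 1 with shRNA 162, where 2.53% and 9.52% of all rows passed. KRT80 rose with shRNA 159 by 0.46 and KRT8, a keratin of simple epithelia, fell by 0.44 with shRNA 162 (limma adjusted p = 0.031 and 0.027). The KRT8 call was lost without control clone 1 or either shRNA 162 clone, and that of KRT80 without either control clone or shRNA 159 clone 1.

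**Figure D3:**
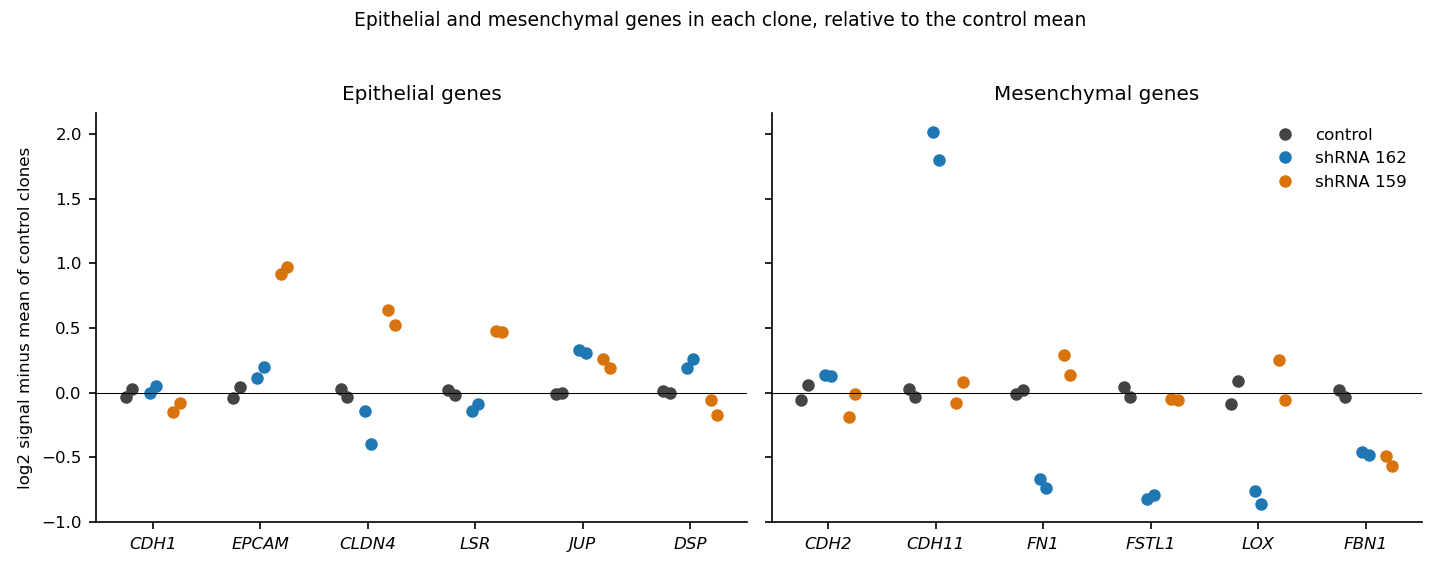
Log2 signal minus the mean of the control clones (vertical axis) for 6 epithelial and 6 mesenchymal genes; each point is 1 clone, coloured by group. EPCAM, CLDN4 and LSR are high in the shRNA 159 clones alone, and FN1, FSTL1 and LOX are low and CDH11 high in the shRNA 162 clones alone.

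More mesenchymal genes passed with shRNA 162 than with shRNA 159, as did more of all rows (9.52% and 2.53%). Of 32 measured genes 8 fell and 2 rose with shRNA 162, where 3.64% of all rows fell and 5.88% rose, and the median of the list was -0.04 beside 0.02 over all rows. FN1 (fibronectin), a matrix protein of mesenchymal cells, read 11.55 and 11.58 in the control clones, 10.89 and 10.82 with shRNA 162, and 11.85 and 11.70 with shRNA 159. It fell by 0.71 with shRNA 162 (limma adjusted p = 0.0022). FSTL1, a secreted glycoprotein, and LOX, a collagen crosslinker, each fell by 0.81 (limma adjusted p = 0.00077 and 0.0052). The smooth muscle genes TAGLN and CALD1 fell by 0.67 and 0.73 (limma adjusted p = 0.012 and 0.0081), calls lost without control clone 1 or control clone 2, and for TAGLN also without shRNA 162 clone 2. CDH11, a mesenchymal cadherin, moved the other way, from 6.53 and 6.47 in control to 8.52 and 8.30 with shRNA 162 (1.91, limma adjusted p = 5.1e-05), while it read 6.42 and 6.58 with shRNA 159. LOXL2, an oxidase that binds SNAIL, rose by 0.75 with shRNA 162 (limma adjusted p = 0.0012), as did 7 of its 10 neighbours on chromosome 8 (median 0.78), whose part in the result was not tested. CDH11, FSTL1, FN1, LOX and LOXL2 kept their calls without any 1 of the 4 clones.

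With shRNA 159 minus control 1 of the 32 mesenchymal genes fell and 0 rose, where 0.839% of all rows fell. It was FBN1 (fibrillin), at -0.53 (limma adjusted p = 0.0092), and FBN1 also fell with shRNA 162, by 0.46 (limma adjusted p = 0.0083). Its log2 signal was 7.98 and 7.93 in the control clones, 7.50 and 7.48 with shRNA 162, and 7.47 and 7.39 with shRNA 159, so all 4 shRNA clones lay below control. Both FBN1 calls were lost without control clone 1 or control clone 2, and that with shRNA 162 also without either of its own clones. CDH2 (N-cadherin), which replaces E-cadherin in the textbook switch, differed by 0.02 for TIP-1 shRNA minus control (95% interval -0.16 to 0.19, limma adjusted p = 0.932). Its row read 6.68 and 6.80 in the control clones, 6.88 and 6.87 with shRNA 162, and 6.55 and 6.73 with shRNA 159. Like CDH1 it lay below every array median, and whether so dim a row could show a fall was not tested. The direct comparison of the hairpins called 8 of 32 mesenchymal genes higher and 2 lower with shRNA 159, against 4.02% and 4.64% of all rows. FN1 differed by 0.92, TAGLN by 1.02, LOX by 0.90, CALD1 by 0.84 and FSTL1 by 0.75, and CDH11 by -1.91. In both hairpin groups together 2 of the 32 rose against control, CDH11 (0.96) and LOXL2 (0.41), and 3 fell, FSTL1 (-0.43), FBN1 (-0.50) and WNT5A, a secreted WNT ligand named after its values were seen. FSTL1, LOXL2 and FBN1 lost this call without either control clone. With the hairpin as a random block all 4 lost it, CDH11 at a limma adjusted p of 0.765, FSTL1 and LOXL2 at 0.744 and FBN1 at 0.094, and CDH11 stood at 0.0 with shRNA 159. FBN1, like SNAI2, fell with both hairpins, and neither gene differed between them beyond its error (FBN1 -0.07, limma adjusted p = 0.659). SNAI2 also lost its call for both hairpins together with the hairpin as a random block (limma adjusted p = 0.187).

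**Figure D4:**
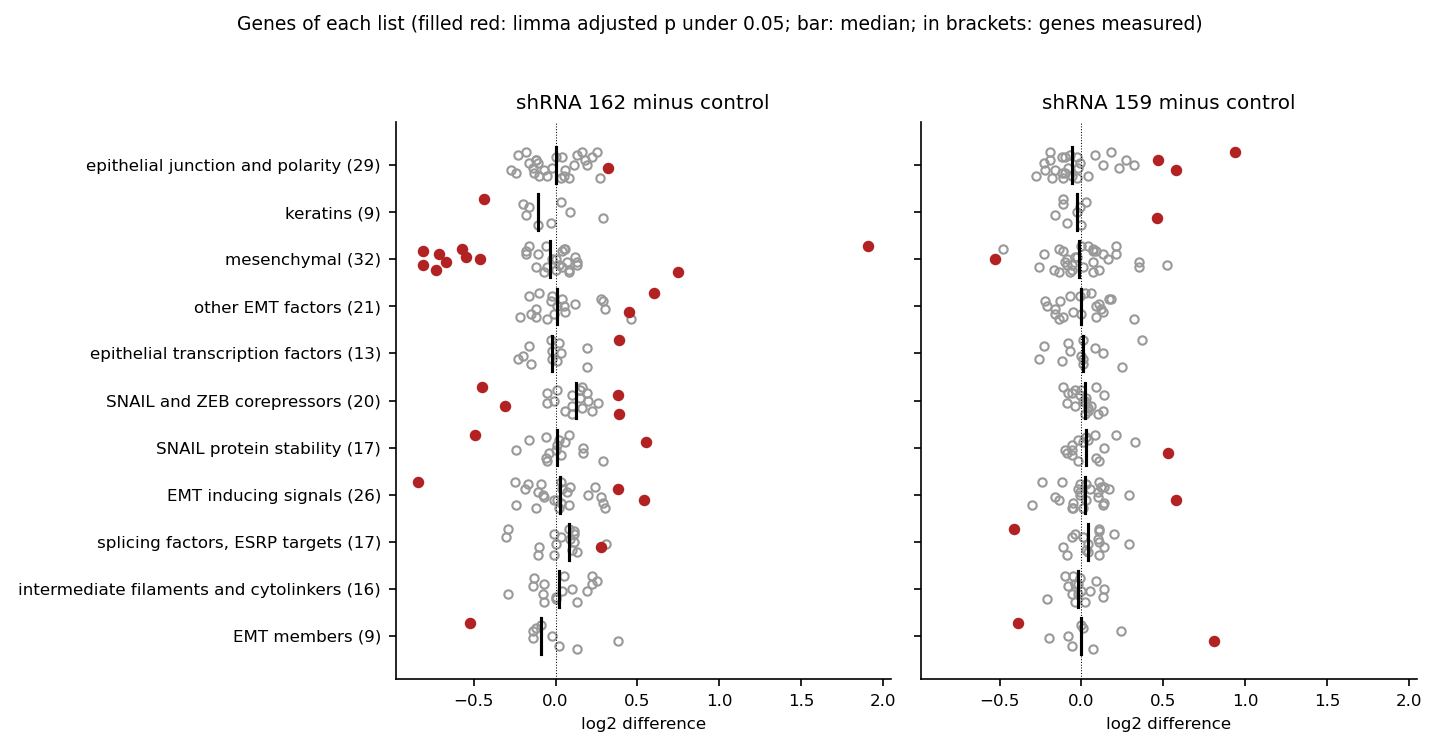
Log2 differences (horizontal axis) of every measured gene in 10 companion lists and of the members, for shRNA 162 minus control and shRNA 159 minus control; filled red points passed at a limma adjusted p under 0.05, bars are list medians and brackets give the genes measured. The mesenchymal list has 10 filled points with shRNA 162 and 1 with shRNA 159, out of 32 genes, where 9.52% and 2.53% of all rows passed.

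Of 21 other EMT transcription factors, which include TCF4 and PRRX1, 1 rose and 0 fell for TIP-1 shRNA minus control, where 4.62% of all rows passed. The inhibitor of helix-loop-helix factors ID3 rose by 0.29 (limma adjusted p = 0.045), a call lost without any 1 of the 6 clones. With shRNA 162 the BMP-responsive ID1 and ID3 rose by 0.60 and 0.45 (limma adjusted p = 0.0083 and 0.0093), each lost without control clone 1 or shRNA 162 clone 2 and ID3 also without shRNA 162 clone 1. SNAI3, the third SNAIL family gene, stood at -0.16, short of the threshold (limma adjusted p = 0.308). Of 13 epithelial transcription factors, 1 rose and 0 fell for TIP-1 shRNA minus control, where 3.01% of all rows rose and 1.61% fell. It was TFCP2L1, a relative of the grainyhead family, at 0.38 (limma adjusted p = 0.032). This call was lost without either control clone, either shRNA 162 clone or shRNA 159 clone 1. The grainyhead genes GRHL1 (0.22) and GRHL3 (-0.05) and the epithelial repressor OVOL1 (-0.01) did not pass.

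SNAIL and ZEB act through corepressor complexes, and SNAIL itself is known to be controlled by protein turnover. Of 20 corepressor genes, 0 passed in limma for TIP-1 shRNA minus control, where 4.62% of all rows passed. At an unadjusted p under 0.05 in the same test 4 of the 20 passed, as did 4192 of all 21214 rows. With shRNA 162, 2 rose (CTBP1, the ZEB corepressor, 0.38, and the chromatin remodeller SMARCA4, 0.39) and 2 fell (RCOR1, -0.45, and the SNAIL partner AJUBA, -0.31), where 9.52% of all rows passed. Of 17 genes of SNAIL protein stability, 1 passed for TIP-1 shRNA minus control and 1 with shRNA 159, where 4.62% and 2.53% of all rows passed. In both it was the ubiquitin ligase subunit FBXO11, which marks SNAIL for breakdown, higher by 0.35 and 0.53. FBXO11 is a neighbour of EPCAM on chromosome 2. With shRNA 162, 2 of the 17 passed, where 9.52% of all rows passed. FBXO45, another ligase subunit for SNAIL family proteins, fell by 0.49 and FBXW7 rose by 0.55. Of 10 neighbours of FBXO45 on chromosome 3, 6 fell with it (median -0.47) and 6 stood higher with shRNA 159 than with shRNA 162 (median 0.68, FBXO45 0.70). With shRNA 162, 3 of 10 neighbours of RCOR1 fell too (median -0.19) and 3 of 10 neighbours of CTBP1 rose (median 0.19). The part of the neighbours in these results was not tested. GSK3B, the kinase that marks SNAIL for export and breakdown, stood at -0.17, short of the threshold (limma adjusted p = 0.277). Each of these 7 genes lost its calls against control without control clone 1 or control clone 2, and also without at least 1 of the shRNA clones.

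Among 26 genes of signals that induce the program, 1 rose and 1 fell for TIP-1 shRNA minus control, where 3.01% of all rows rose and 1.61% fell. IL6, a cytokine that can induce SNAI1, read 6.68 and 6.69 in the control clones, 7.25 and 7.20 with shRNA 162, and 7.33 and 7.20 with shRNA 159. It rose by 0.56 for both hairpins together, 0.54 with shRNA 162 and 0.58 with shRNA 159 (limma adjusted p = 0.0039, 0.0059 and 0.0079). All 3 calls were lost without control clone 1 and the first and last also without control clone 2, with limma adjusted p values no higher than 0.058, 0.052 and 0.073 in that order. HIF1A, the hypoxia factor that can activate TWIST1 and SNAI1, fell by 0.54 (limma adjusted p = 0.0071, lost without control clone 1) and by 0.84 with shRNA 162 (limma adjusted p = 0.0012), where 3 of its 10 neighbours on chromosome 14 fell too (median -0.19), whose part was not tested. With shRNA 162 SMAD3, which carries the TGF-beta signal, rose by 0.38, a call lost without any 1 of the 4 clones. Between the hairpins the NOTCH target HEY1 was lower with shRNA 159 (-0.37), a call lost without shRNA 159 clone 1 or either shRNA 162 clone. The genes of beta-catenin, TGFB1, TGFBR1 and NOTCH1 were in this list and did not pass in any comparison.

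Of 17 splicing factors and ESRP target transcripts, 0 rose and 1 fell for TIP-1 shRNA minus control, where 1.61% of all rows fell. It was KHDRBS3, an RNA-binding splicing regulator, at -0.35 (limma adjusted p = 0.032), and -0.41 with shRNA 159 (limma adjusted p = 0.041), calls lost without either control clone, without either shRNA 162 clone for the first and without either shRNA 159 clone for the second. HNRNPF rose with shRNA 162 by 0.28 (limma adjusted p = 0.045) and CELF1 was higher with shRNA 159 than with shRNA 162 by 0.31 (limma adjusted p = 0.049), both calls lost without any 1 of the 4 clones compared. The relative of KHDRBS3, KHDRBS1, differed by 0.02 for TIP-1 shRNA minus control. ENAH and FGFR2, whose exons ESRP proteins switch, did not pass in any comparison. These are signals of whole transcripts, and exon use was not measured here.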

How the data were processed

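RNA of 6 MDA-MB-231 cultures was measured on Affymetrix Human Gene 1.0 ST arrays, 1 array per clone. The deposited values are log2 signals that, per the labels, the authors made with the Affymetrix Exon Array Computational Tool; the background, normalization and summarization settings are not stated there, and the log base was taken from the range of the values (2.29 to 14.65). They were used without further scaling.

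Of 33297 rows, 21214 had a gene symbol in the platform annotation (19460 with 1 symbol, 1754 with several) and were tested; 12083 without one were left out. A model with the 3 groups was fitted to all 6 arrays with limma 3.58.1 (R 4.3.3) and moderated with eBayes, with 3 residual and 5.31 prior degrees of freedom. The threshold was 0.05 for the p-value after Benjamini-Hochberg adjustment. TIP-1 shRNA minus control compares the mean of both hairpin groups with control. With 2 clones per group, the number of arrays limits the precision. The p-values set a difference against an error made of the spread between clones of a group and a prior from all tested rows. For TIP-1 shRNA minus control this error leaves out the spread between hairpins.

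The members and gene lists were chosen with earlier results of these data known, and the 7 miRNAs were added after the values were seen. The text names all members, and from each list at most 8 genes that passed, by smallest adjusted p, besides CDH1, CDH2, EPCAM, FN1, CDH11, GRHL1, GRHL3, OVOL1, SNAI3, CTBP1, GSK3B and KHDRBS1. A gene with several rows entered a list by its row with the highest mean. Neighbours were the 5 nearest measured genes on each side. Sequences are those of RefSeq. The fit was tested on simulated data. Python 3.11.15 was used for the other steps. Alternatives were quantile normalization over all rows, all rows tested, brighter rows alone, a variance trend, the arrays of a comparison alone, the 4 shRNA clones as 1 group, the hairpin as a random block, the clone number as a block, and each clone left out.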

Additional observations from a re-analysis of the deposited data

Results flagged for a closer look

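In 27 of the genes described, the hairpins differed from each other in the direct test of shRNA 159 minus shRNA 162 (limma adjusted p under 0.05 over all tested rows), 16 higher and 11 lower with shRNA 159. Apart from the members and the genes always named, they were selected because they passed in 1 or more of the 4 comparisons, this one included. The count therefore gives no rate, and over all rows 8.65% passed, 4.02% higher and 4.64% lower. The control clones do not enter the difference between hairpins, but their spread enters the error of the test. With the 4 arrays compared alone 1352 rows passed, against 1836 with all 6 arrays. Among the regulators the genes that differed were SNAI1 (0.43) and ZEB2 (0.37, brighter row), and neither passed with the 4 arrays alone. Of the epithelial genes, EPCAM (0.79), CLDN4 (0.85) and LSR (0.59) were higher with shRNA 159, and MAL2 (-0.45), DSP (-0.34) and PKP2 (-0.33) were lower. Of the mesenchymal genes, FSTL1 (0.75), FN1 (0.92), TAGLN (1.02), LOX (0.90) and CALD1 (0.84) were higher, and CDH11 (-1.91) and LOXL2 (-0.68) were lower. The factors ID1 (-0.54), ID3 (-0.32) and KLF4 (-0.42), the corepressor CTBP1 (-0.39), the NOTCH target HEY1 (-0.37) and the cytolinker PLEC (-0.31) were lower with shRNA 159. RCOR1 (0.34), AJUBA (0.38), FBXO45 (0.70), FBXO11 (0.36), HIF1A (0.60) and the splicing factor CELF1 (0.31) were higher. Over the 4 comparisons, most calls of the list genes selected by the naming rule, members left out, were lost without 1 or another clone of the groups compared. Other list genes that passed, WNT5A among them, were not checked in this way.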

How the results depend on the processing

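Of 1130 values under other settings, for 109 log2 differences of single genes, 832 kept their direction and their side of the threshold, 274 kept their direction but no longer passed, 3 came past it and 21 changed sign. None of the 76 differences that passed changed sign under these settings. The cause of these shifts was not tested. In the fits of all rows or of brighter rows alone, both the moderation and the adjustment used another set of rows.

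With all rows tested, 226 rows passed for TIP-1 shRNA minus control, 691 with shRNA 162, 111 with shRNA 159 and 593 between hairpins. With a variance trend, 2265, 3482, 1137 and 3022 passed. With brighter rows alone, 1992 passed for TIP-1 shRNA minus control, 3090 with shRNA 162 and 946 with shRNA 159. In the pooled comparison with control, 27 rows passed when hairpin was fitted as a random block and 71 with the 4 shRNA clones as 1 group. Without 1 clone of the compared groups in turn, 187 to 1138, 526 to 697, 142 to 512 and 597 to 1272 rows passed in the 4 comparisons, in the order above. Leaving out a clone of the group not compared gave the same counts as the 4 arrays compared alone, 2416 with shRNA 162, 377 with shRNA 159 and 1352 between hairpins.

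Of the members, 0 passed with all rows tested for TIP-1 shRNA minus control, with shRNA 159 and between hairpins. For TIP-1 shRNA minus control 0 passed with the random block or with 1 group of shRNA clones. With shRNA 162, 2 passed with brighter rows, with the 4 arrays compared alone and with a variance trend, SNAI1 being the second. With the 4 arrays alone, 1 passed with shRNA 159 and 0 between hairpins, and the calls of KHDRBS3 with shRNA 159 and of DSP, PKP2, ID3, RCOR1, HEY1, CELF1 and PLEC between hairpins were lost. Leaving out 1 clone of the compared groups gave 0 to 2 members for TIP-1 shRNA minus control, 0 to 1 with shRNA 162, 0 to 1 with shRNA 159 and 0 to 2 between hairpins. Over all settings the limma adjusted p of SNAI1 for TIP-1 shRNA minus control ranged from 0.00056 to 0.393, and that of SNAI2 from 2.2e-05 to 0.187.

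The values that changed sign were of members that did not pass. After quantile normalization these were ZEB1 with shRNA 162 (-0.02), TWIST1 with shRNA 159 (0.01) and GRHL2 between hairpins (0.01). Without 1 clone in turn, other values spanned 0. For TIP-1 shRNA minus control these were ZEB1 (-0.04 to 0.01), TWIST1 (-0.12 to 0.03) and ESRP2 (-0.13 to 0.02). With shRNA 162 they were ZEB1 (-0.02 to 0.06), TWIST1 (-0.18 to 0.01), TWIST2 (-0.29 to 0.01) and VIM (-0.04 to 0.01). With shRNA 159 they were TWIST1 (-0.08 to 0.07), ESRP2 (-0.09 to 0.11) and the second ZEB2 row (-0.07 to 0.07). Between hairpins they were TWIST1 (-0.01 to 0.17) and TWIST2 (-0.22 to 0.11).

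The clone numbers were shared between groups. The first-minus-second difference correlated at -0.05 between control and shRNA 162 and at -0.03 between the hairpins. Between control and shRNA 159 it correlated at 0.26, so same-numbered clones of these 2 groups deviated together in part. Whether the clone numbers mark a shared handling was not tested. With the replicate block 1011, 2128, 584 and 1983 rows passed, and the calls of SNAI1, SNAI2 and ZEB2 were kept.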
